A study of Saccharomyces cerevisiae with 6 samples.

Results

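The amino acid biosynthesis genes described here are 39 genes of 9 pathways, those for arginine, histidine, lysine, leucine, isoleucine and valine, tryptophan, the shikimate route to the aromatic amino acids, homoserine and threonine, and serine. They were taken from a list of gene names drawn up with earlier results of these data known. Comparisons of these genes with all genes therefore describe the list and do not test it. The 39 genes are part of the 6389 annotated yeast genes counted. Native elongating transcript sequencing (NET-seq) purifies a polymerase from frozen, ground cells and sequences the 3′ ends of the RNA that comes down with it. In this study the polymerase was RNA polymerase I (Pol I), which transcribes the ribosomal DNA (rDNA), and 3 libraries were made from each of 2 *Saccharomyces cerevisiae* strains. Both strains carried an HA tag on the Pol I subunit Rpa135, the handle for the immunoprecipitation. The WT strain had no other change that the sources name, and the *rpa12Δ* strain was derived from it by full deletion of RPA12, the gene for the A12.2 subunit of Pol I. All cultures were 3 L of the rich medium YEPD, collected at A600 = 0.3. The reads described here are those outside the rDNA. Which polymerase made these RNAs was not tested, and in bulk samples fewer cells making an RNA and less RNA per cell cannot be told apart.

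Yeast makes all amino acids itself, and most of these enzymes are encoded by genes under general amino acid control, in which the activator Gcn4 switches on many pathways at once when any one amino acid runs short. Pathway regulators add a second layer, such as Leu3 for leucine, Lys14 for lysine and Bas1 for histidine. Rich medium supplies amino acids, and under those conditions Gcn4 is known to be made at a low level because translation of its mRNA is held back.

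Read ends were counted in each gene on its transcript strand and divided by the reads of the library outside the rDNA, and all levels are given in RPM, the read ends per 1000000 of these. The WT libraries held 1165143 to 1662542 such reads and the *rpa12Δ* libraries 4674055 to 4859327, so that 1 read was worth between 0.601 and 0.858 RPM in the former and between 0.206 and 0.214 RPM in the latter. These reads were 24.6 to 27.3% of all reads in WT and 33.2 to 34.6% in *rpa12Δ*, so the denominator itself differed between strains. Spearman correlations across genes were 0.937 to 0.947 between WT libraries, 0.945 to 0.973 between *rpa12Δ* libraries and 0.850 to 0.894 between strains, with genes not being independent replicates. RPA12 itself was at 4.81, 6.30 and 2.57 RPM in the WT libraries and 0, 0 and 0.212 in the *rpa12Δ* libraries, where 0 reads allow a level of up to 0.617 and 0.642 RPM. The strains also differed at genes other than RPA12. All 6 a-specific genes, which only cells of mating type a transcribe, were higher in each *rpa12Δ* library than in any WT library, with summed levels of 5.60 to 13.7 RPM in WT against 176 to 233 in *rpa12Δ*, and MFA1, MFA2 and AGA2 had no read in WT. STE2, the alpha-factor receptor, was at 2.41, 3.500 and 4.29 RPM in the WT libraries and 86.6, 72.7 and 75.1 in the *rpa12Δ* libraries. The 4 alpha-specific genes had summed levels between 9.80 and 18.6 RPM in WT and between 5.73 and 14.8 in *rpa12Δ*, and MF(ALPHA)2 had no read in any library. Of 7 common marker genes of laboratory strains, the 6 that could be tested fell, against 25.7% of all genes tested. With each library scaled by the median ratio over genes, 5 of these 6 fell, against 17.5% of all genes. All 7 together had between 326 and 381 RPM in WT and between 118 and 152 in *rpa12Δ*. These differences and the deletion cannot be told apart as sources of any difference below.

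Read ends in the 39 genes together were at 2641, 2414 and 2382 RPM in the WT libraries and at 1695, 1642 and 1600.2 in the *rpa12Δ* libraries. Every *rpa12Δ* library lay below every WT library. Of the 39 genes, 38 reached a mean of 10 RPM and were tested with limma, and ARG3 did not. Among these 38 genes 21 fell in *rpa12Δ* (55.3%), none rose, and 17 did not pass the adjusted p of 0.05. LYS9 alone was higher at an unadjusted p of 0.05, and none was called higher with limma-voom. Over all 2902 genes of the same fit, 25.7% fell and 5.38% rose, and over its 2538 protein-coding genes 27.9% fell and 2.48% rose. The number of genes that fell was 747, and it was 440 without *rpa12Δ* replicate 2. In 24 of the 38 tested genes (63.2%) all *rpa12Δ* libraries lay below all WT libraries, against 33.5% of all genes, and in 1, LYS9, they lay above, against 10.1%.

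The median log2 difference of the 38 genes was -0.69, against -0.26 over all genes tested, and 28 of the 38 (73.7%) lay below the median of all genes. The zero point of these differences depended on the denominator. Protein-coding genes held 25.03 to 27.0% of the reads outside the rDNA in WT and 20.02 to 23.1% in *rpa12Δ*, so a gene with an unchanged share of the protein-coding reads appears lower on this scale. Scaling each library by the median ratio over genes moved the median of all genes to 0.00, and by this measure 17.5% of all genes fell and 16.5% rose, while 16 of the 38 amino acid genes fell and LYS9 and LYS20 rose. The share of calls that were falls was 82.7% with the main denominator, 51.5% with the median ratio and 25.7% when libraries were divided by their 35S read ends. The median of the amino acid genes stayed negative in each of 27 alternatives, from -0.75 to -0.19, and its distance to the median of all genes ran from -0.56 to -0.29.

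**Figure D1:**
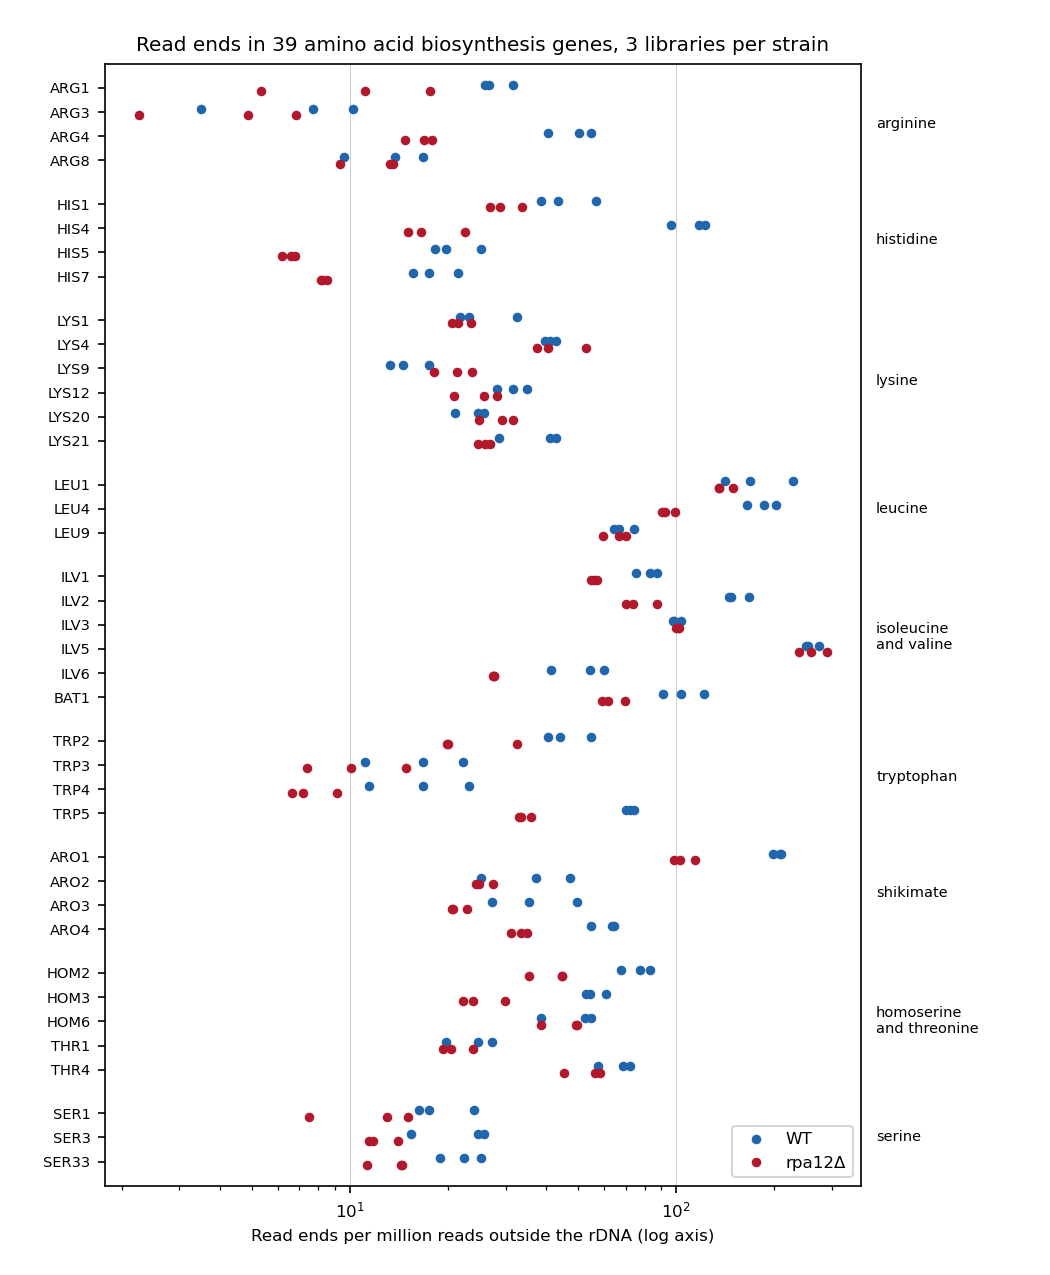
Read ends in RPM (log axis) in each of the 39 genes, by pathway, with 1 point per library (blue, 3 WT libraries above each line; red, 3 rpa12Δ libraries below it). The red points of HIS4, HIS5, ARG4 and TRP5 lie well to the left of the blue ones, and those of ILV3 and ILV5 lie among them.

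**Figure D2:**
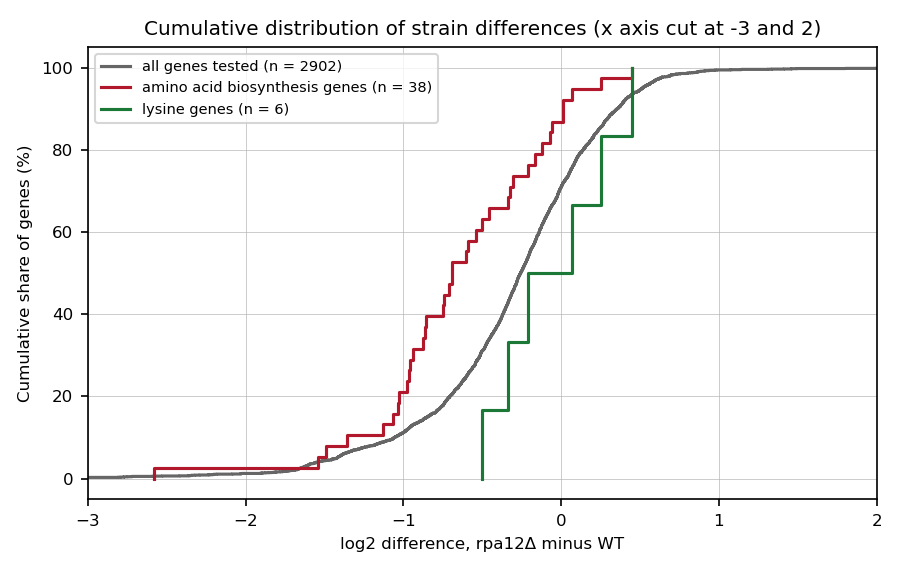
Cumulative share of genes (%) against the log2 difference between strains (rpa12Δ minus WT) for all 2902 genes tested (grey), the 38 amino acid biosynthesis genes tested (red) and the 6 lysine genes among them (green). The red curve has its median at -0.69 and the grey one at -0.26, whereas the lysine curve has its median at -0.07.

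The counts by pathway that follow rest on 3 to 6 tested genes each, and 25.7% of all genes fell. The 4 histidine genes all fell, and their summed level went from 197 ± 19.8 RPM in WT (SD, n = 3) to 62.6 ± 7.53 in *rpa12Δ* (n = 3). HIS4 (YCL030C, chromosome III 65934 to 68333, minus strand) encodes an enzyme that catalyses several steps of the pathway, the last one included. It had 117, 123 and 96.1 RPM in the WT libraries and 15.0, 16.5 and 22.5 in the *rpa12Δ* libraries, or 112 to 195 reads per library in WT and 73 to 106 in *rpa12Δ*. The groups did not overlap, the *rpa12Δ* mean was 16.1% of the WT mean, and the log2 difference was -2.58 (SE 0.19, adjusted p = 2.48e-07). HIS4 ranked 17 from the lowest of the 2902 genes tested, and its log2 difference stayed between -2.75 and -2.07 under all alternatives. HIS5 (YIL116W, chromosome IX 142928 to 144085, plus strand), the histidinol phosphate aminotransferase, had 25.3, 18.2 and 19.7 RPM in the WT libraries and 6.79, 6.20 and 6.58 in the *rpa12Δ* libraries, a log2 difference of -1.54 (SE 0.24, adjusted p = 1.28e-04). HIS7 is the imidazole glycerol phosphate synthase, with 15.6, 17.5 and 21.5 RPM in the WT libraries and 8.23, 8.13 and 8.49 in the *rpa12Δ* libraries and a log2 difference of -1.04 (SE 0.23, adjusted p = 0.00294). For both genes the *rpa12Δ* libraries were tight and below all WT libraries. HIS1, the ATP phosphoribosyltransferase that opens the pathway, had the highest level per kb of the 4, 51.7 RPM per kb in WT, and the smallest difference. Its levels were 43.3, 56.7 and 38.6 RPM in the WT libraries and 28.8, 27.0 and 33.7 in the *rpa12Δ* libraries, without overlap, for a log2 difference of -0.60 (SE 0.19, adjusted p = 0.0260). The HIS1 call was lost without WT replicate 1, WT replicate 2 or *rpa12Δ* replicate 2 (adjusted p = 0.0521, 0.118 and 0.137), and with the median ratio (log2 difference -0.34, adjusted p = 0.167).

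In the arginine pathway 2 of 3 tested genes fell, and the summed level of the 4 genes was 97.0 ± 7.52 RPM in WT (SD, n = 3) and 44.6 ± 5.93 in *rpa12Δ* (n = 3). ARG4 (YHR018C, chromosome VIII 140011 to 141402, minus strand) encodes argininosuccinate lyase, the last enzyme of the pathway. It had 54.7, 50.4 and 40.3 RPM in the WT libraries and 16.9, 14.8 and 17.8 in the *rpa12Δ* libraries, and the log2 difference was -1.49 (SE 0.19, adjusted p = 2.38e-05). ARG1, the argininosuccinate synthetase that acts just before it, had 25.9, 31.5 and 26.6 RPM in the WT libraries and 5.35, 11.1 and 17.6 in the *rpa12Δ* libraries, a log2 difference of -1.36 (SE 0.31, adjusted p = 0.00338). Neither gene overlapped between strains, but ARG1 was spread over more than a 3-fold range within *rpa12Δ*, and its call was lost when each gene was given its own variance alone (adjusted p = 0.130). The other pair had no call, ARG3 because it was below the filter and too low to be told from either case. ARG8, the acetylornithine aminotransferase of the mitochondrial branch, had 9.62, 16.8 and 13.7 RPM in the WT libraries and 13.6, 13.3 and 9.34 in the *rpa12Δ* libraries, which overlapped, and a log2 difference of -0.12 (SE 0.26, adjusted p = 0.744). ARG3, the ornithine carbamoyltransferase, had 10.2, 3.500 and 7.72 RPM in the WT libraries and 2.26, 6.85 and 4.88 in the *rpa12Δ* libraries, from 5 to 32 reads, and in a fit over all 6260 genes with reads its log2 difference was -0.52 (adjusted p = 0.437).

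The tryptophan genes were lower as a group, with 3 of 4 falling and a summed level of 152 ± 6.04 RPM in WT (SD, n = 3) and 76.6 ± 6.13 in *rpa12Δ* (n = 3). TRP5 (YGL026C, chromosome VII 446412 to 448535, minus strand) encodes tryptophan synthase, the last step. It had 70.4, 74.2 and 72.1 RPM in the WT libraries and 33.3, 32.9 and 35.9 in the *rpa12Δ* libraries, without overlap, and a log2 difference of -1.06 (SE 0.16, adjusted p = 1.17e-04). TRP2, a subunit of anthranilate synthase at the start of the pathway, had 54.7, 44.1 and 40.3 RPM in the WT libraries and 32.5, 19.9 and 19.95 in the *rpa12Δ* libraries, with *rpa12Δ* replicate 1 nearest to WT, and a log2 difference of -0.94 (SE 0.22, adjusted p = 0.00381). TRP4, the anthranilate phosphoribosyltransferase, had 11.4, 16.8 and 23.2 RPM in the WT libraries and 7.20, 6.63 and 9.13 in the *rpa12Δ* libraries, without overlap although WT replicate 1 came close, and a log2 difference of -1.03 (SE 0.28, adjusted p = 0.0103). The TRP4 call was lost without WT replicate 3 or *rpa12Δ* replicate 2 (adjusted p = 0.0693 and 0.0612). TRP3 encodes the partner of TRP2 in anthranilate synthase and also a later enzyme. Its levels of 22.3, 16.8 and 11.2 RPM in the WT libraries and 7.41, 10.1 and 14.9 in the *rpa12Δ* libraries overlapped, and the log2 difference of -0.59 (SE 0.29, adjusted p = 0.138) did not pass the threshold.

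The shikimate pathway leads to chorismate, the precursor of the aromatic amino acids, and 3 of its 4 genes fell. The summed level was 341 ± 27.9 RPM in WT (SD, n = 3) and 185 ± 10.3 in *rpa12Δ* (n = 3). ARO1 (YDR127W, chromosome IV 704484 to 709250, plus strand), a long gene for a single protein that carries several consecutive enzyme activities, had 209.9, 198 and 209 RPM in the WT libraries and 114, 98.2 and 103 in the *rpa12Δ* libraries. The strains did not overlap, and the log2 difference was -0.96 (SE 0.14, adjusted p = 7.40e-05). The first step is shared by a pair of isoenzymes, ARO3, which phenylalanine inhibits, and ARO4, which tyrosine inhibits. ARO4 had the highest level per kb of the pathway (54.8 RPM per kb in WT), with 54.7, 63.7 and 64.4 RPM in the WT libraries and 34.8, 31.2 and 33.5 in the *rpa12Δ* libraries and a log2 difference of -0.86 (SE 0.17, adjusted p = 0.00113). ARO3 had 35.5, 27.3 and 49.8 RPM in the WT libraries and 22.8, 20.8 and 20.6 in the *rpa12Δ* libraries, more scattered in WT, and a log2 difference of -0.74 (SE 0.22, adjusted p = 0.0169). No library of either gene overlapped between strains. The ARO3 call was lost without WT replicate 3 or *rpa12Δ* replicate 2 (adjusted p = 0.105 and 0.0764), and with the median ratio (log2 difference -0.48, adjusted p = 0.0532). ARO2, the chorismate synthase at the end of the pathway, had 37.3, 25.2 and 47.2 RPM in the WT libraries and 24.9, 27.4 and 24.4 in the *rpa12Δ* libraries, which overlapped, and a log2 difference of -0.46 (SE 0.22, adjusted p = 0.127). Without WT replicate 2 ARO2 was called lower (log2 difference -0.70, adjusted p = 0.0248).

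**Figure D3:**
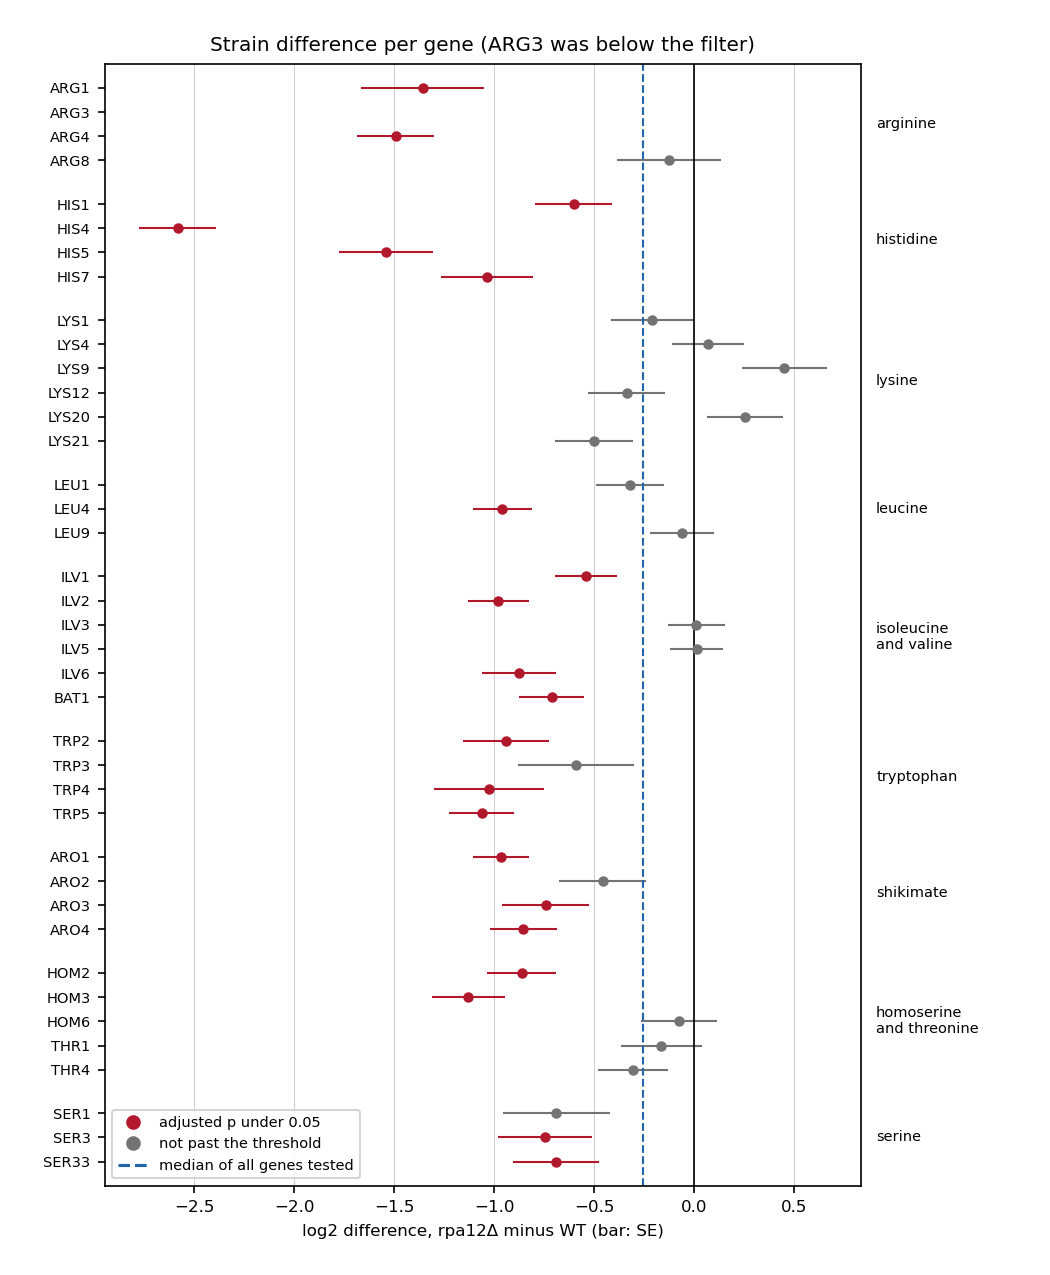
Log2 difference between strains (rpa12Δ minus WT, bars show the SE) for the 38 tested genes by pathway, red where the limma adjusted p was under 0.05 and grey otherwise, with the median of all genes tested as a dashed line at -0.26. HIS4 lies at -2.58, and no lysine gene is red.

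The isoleucine and valine pathway was split, with 4 of 6 genes falling and the other two level. ILV2 (YMR108W, chromosome XIII 484084 to 486147, plus strand) and ILV6 encode the catalytic and the regulatory subunit of acetolactate synthase, which starts the branch. ILV2 had 167, 145 and 147 RPM in the WT libraries and 87.3, 70.4 and 73.9 in the *rpa12Δ* libraries and a log2 difference of -0.98 (SE 0.15, adjusted p = 1.51e-04). ILV6 had 60.1, 54.6 and 41.2 RPM in the WT libraries and 27.6, 27.4 and 27.6 in the *rpa12Δ* libraries and a log2 difference of -0.88 (SE 0.19, adjusted p = 0.00205). Neither subunit overlapped between strains. BAT1, the mitochondrial branched-chain aminotransferase that ends the pathway, had 122, 104 and 91.0 RPM in the WT libraries and 69.8, 59.3 and 61.8 in the *rpa12Δ* libraries and a log2 difference of -0.71 (SE 0.16, adjusted p = 0.00372). ILV1, the threonine deaminase that feeds isoleucine, had 75.2, 87.5 and 83.3 RPM in the WT libraries and 57.0, 54.8 and 55.8 in the *rpa12Δ* libraries, with no overlap, and a log2 difference of -0.54 (SE 0.16, adjusted p = 0.0149). The ILV1 call was lost without WT replicate 2 or *rpa12Δ* replicate 2 (adjusted p = 0.0560 and 0.0776), and with the median ratio (log2 difference -0.27, adjusted p = 0.192).

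The enzymes between them behaved differently. ILV5 (YLR355C, chromosome XII 838066 to 839253, minus strand), the acetohydroxyacid reductoisomerase, had the highest level per kb of all 39 genes, 218 RPM per kb in WT and 220.3 in *rpa12Δ*. Its levels were 273, 253 and 251 RPM in the WT libraries and 258, 289 and 238 in the *rpa12Δ* libraries, with overlap, and the log2 difference was 0.01 (SE 0.13, adjusted p = 0.957). ILV3, the dihydroxyacid dehydratase that follows it, had 103, 98.0 and 98.7 RPM in the WT libraries and 102, 101 and 99.5 in the *rpa12Δ* libraries, with overlap, and a log2 difference of 0.01 (SE 0.14, adjusted p = 0.963). Both were called higher when libraries were divided by their 35S read ends (log2 difference 0.54 and 0.53), by all reads or by protein-coding reads without hosts of non-coding RNAs, so the direction depended on the scale. The summed level of the pathway was 751 ± 45.0 RPM in WT (SD, n = 3) and 587 ± 26.1 in *rpa12Δ* (n = 3).

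Among the 5 pairs of paralogs compared, the leucine genes LEU4 and LEU9 had the largest change in ratio. Both genes, LEU4 (YNL104C, chromosome XIV 424895 to 426754, minus strand) and LEU9 (YOR108W, chromosome XV 523027 to 524841, plus strand), encode alpha-isopropylmalate synthase, the entry to leucine, and LEU4 is the major isoenzyme. LEU4 had 202, 186 and 165 RPM in the WT libraries and 99.2, 92.2 and 90.6 in the *rpa12Δ* libraries, without overlap, and a log2 difference of -0.96 (SE 0.15, adjusted p = 1.18e-04). LEU9 had 74.0, 64.4 and 66.9 RPM in the WT libraries and 70.2, 67.0 and 59.6 in the *rpa12Δ* libraries, which overlapped, and a log2 difference of -0.06 (SE 0.16, adjusted p = 0.795). The log2 ratio of LEU4 to LEU9 within a library was 1.44, 1.51 and 1.29 in WT and 0.49, 0.46 and 0.60 in *rpa12Δ*. The denominator acts on this ratio only through the 1 RPM added to each level, and the ratio did not overlap between strains. It changed by -0.90 (95% interval from the pooled spread -1.11 to -0.68), with an exact two-sided permutation p of 0.1, the smallest that 3 against 3 libraries can give, and 0.25 after adjustment over 5 paralog pairs. LEU1, the isopropylmalate isomerase that acts next, had 227, 168 and 141 RPM in the WT libraries and 149, 135 and 136 in the *rpa12Δ* libraries, with overlap through WT replicate 3, and a log2 difference of -0.32 (SE 0.17, adjusted p = 0.166).

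**Figure D4:**
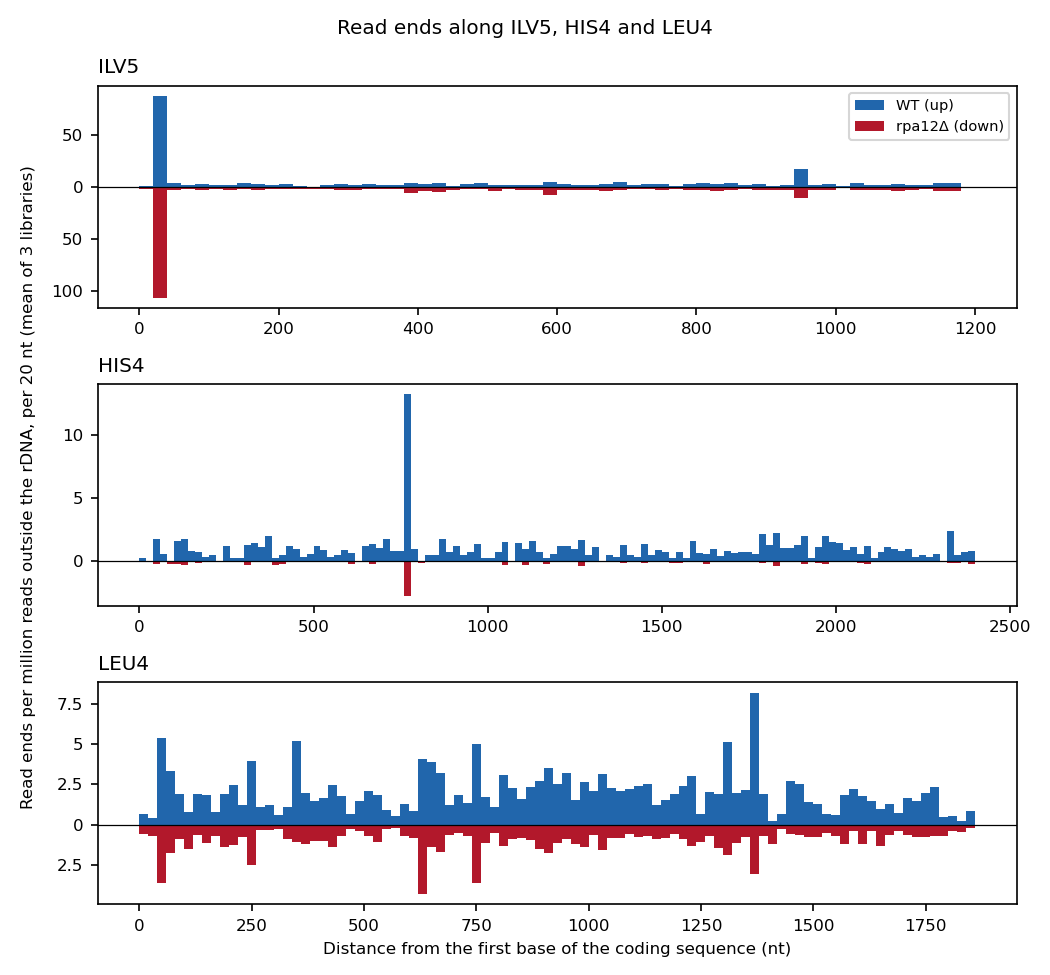
Read ends in RPM in steps of 20 nt along ILV5, HIS4 and LEU4, as the mean of 3 libraries per strain, with WT drawn upwards and rpa12Δ downwards against the distance from the first base of the coding sequence (nt). ILV5 is led by a single position in both strains, HIS4 is lower in rpa12Δ on both sides of its highest position, and LEU4 is lower in rpa12Δ as a whole. Peaks of such means can come mostly from 1 library. Nucleotide 41, the highest of LEU4, had 10.2, 0 and 0.858 RPM in the WT libraries and 4.73, 3.21 and 0.212 in the rpa12Δ libraries.

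None of the 6 lysine genes fell in limma or limma-voom (LYS21 alone at an unadjusted p of 0.05). Over all genes 25.7% fell, so a count over 6 genes is too small to set the pathway apart. The summed level of the lysine genes, 175 ± 16.2 RPM in WT (SD, n = 3) and 166 ± 3.44 in *rpa12Δ* (n = 3), overlapped between strains. The median log2 difference was -0.07 with the main denominator and 0.19 with the median ratio, and with 35S read ends as the denominator LYS4, LYS9 and LYS20 were called higher. LYS9, the saccharopine dehydrogenase that forms saccharopine, had 17.4, 13.3 and 14.6 RPM in the WT libraries and 18.1, 23.7 and 21.2 in the *rpa12Δ* libraries. Each *rpa12Δ* library exceeded each WT library, and the log2 difference of 0.45 (SE 0.21, adjusted p = 0.119) did not pass the threshold, but it did without *rpa12Δ* replicate 1 (0.55, adjusted p = 0.0482) and with the median ratio (0.71, adjusted p = 0.00778). LYS4, the homoaconitase, LYS12, the homoisocitrate dehydrogenase, and LYS1, the enzyme of the last step, had log2 differences of 0.07, -0.34 and -0.21 (adjusted p = 0.796, 0.200 and 0.455). In LYS12 the strains did not overlap by a narrow margin, with 28.3 RPM as the lowest WT and 28.2 as the highest *rpa12Δ* level.

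LYS20 and LYS21 encode the isoenzymes of homocitrate synthase, the first step. LYS20 had 24.7, 21.0 and 25.7 RPM in the WT libraries and 24.9, 31.7 and 29.3 in the *rpa12Δ* libraries, with overlap, and a log2 difference of 0.25 (SE 0.19, adjusted p = 0.327). LYS21, with the highest level per kb of the pathway (28.3 RPM per kb in WT), had 40.9, 28.7 and 42.9 RPM in the WT libraries and 25.9, 27.0 and 24.6 in the *rpa12Δ* libraries, without overlap, and a log2 difference of -0.50 (SE 0.20, adjusted p = 0.0651). LYS21 was called lower without WT replicate 2 (log2 difference -0.68, adjusted p = 0.0223). The log2 ratio of LYS20 to LYS21 changed by 0.76 (95% interval 0.38 to 1.13), without overlap, at an exact permutation p of 0.1 and 0.25 after adjustment. The coding sequences are near copies, and 53.5% of the LYS20 reads and 37.1% of the LYS21 reads in WT had a mapping quality of 0, so the split between the genes is uncertain. With reads of mapping quality of at least 10 alone, the log2 differences were 0.38 for LYS20 and -0.69 for LYS21 (adjusted p = 0.284 and 0.0559).

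In the homoserine and threonine pathway 2 of 5 genes fell, against 25.7% of all genes. The median log2 difference was -0.31, near the -0.26 of all genes tested. The summed level was 271 ± 12.8 RPM in WT (SD, n = 3) and 187 ± 9.73 in *rpa12Δ* (n = 3). HOM3 (YER052C, chromosome V 256375 to 257958, minus strand), the aspartate kinase that commits aspartate to the pathway, had 52.9, 54.6 and 60.9 RPM in the WT libraries and 29.8, 22.3 and 23.8 in the *rpa12Δ* libraries and a log2 difference of -1.13 (SE 0.18, adjusted p = 2.05e-04). HOM2, the aspartate semialdehyde dehydrogenase of the next step, had the highest level per kb, 69.4 RPM per kb in WT. It had 77.6, 67.9 and 83.3 RPM in the WT libraries and 35.4, 44.7 and 44.6 in the *rpa12Δ* libraries and a log2 difference of -0.86 (SE 0.17, adjusted p = 0.00123). The strains did not overlap in either gene. The later enzymes were closer to the WT level. HOM6, the homoserine dehydrogenase, THR1, the homoserine kinase, and THR4, the threonine synthase, had log2 differences of -0.07, -0.16 and -0.31 (adjusted p = 0.791, 0.562 and 0.195), and each overlapped between strains.

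Of the 3 serine genes 2 fell, with a summed level of 63.4 ± 7.10 RPM in WT (SD, n = 3) and 37.6 ± 3.89 in *rpa12Δ* (n = 3). SER3 and SER33 encode the isoenzymes of phosphoglycerate dehydrogenase, the first step from glycolysis. SER3 (YER081W, chromosome V 322686 to 324095, plus strand) had 24.7, 15.4 and 25.7 RPM in the WT libraries and 14.0, 11.8 and 11.5 in the *rpa12Δ* libraries and a log2 difference of -0.75 (SE 0.24, adjusted p = 0.0250). SER33 had 25.3, 22.4 and 18.9 RPM in the WT libraries and 14.4, 14.3 and 11.2 in the *rpa12Δ* libraries and a log2 difference of -0.69 (SE 0.22, adjusted p = 0.0230). Neither overlapped, and their ratio changed by -0.05 (95% interval -0.85 to 0.74, exact permutation p = 0.9). Both calls rested on few reads, 22 to 41 per WT library for SER3. They were lost without WT replicate 1 (adjusted p = 0.101 for SER3 and 0.0951 for SER33), *rpa12Δ* replicate 2 (0.105 and 0.0671) or *rpa12Δ* replicate 3 (0.0711 and 0.104), that of SER3 also without WT replicate 3 (0.118) and that of SER33 without WT replicate 2 (0.0537). With the median ratio the log2 differences were -0.49 and -0.44 (adjusted p = 0.0754 and 0.0970). A mapping quality of 0 was found in 10.8% of SER3 reads in WT and 4.52% in *rpa12Δ*, and in 7.29% and 3.68% of SER33 reads. With reads of mapping quality of at least 10 alone, the SER3 call was lost (log2 difference -0.58, adjusted p = 0.0816). That of SER33 was kept (-0.70, adjusted p = 0.0284). SER1, the phosphoserine aminotransferase, had the highest level per kb, 16.2 RPM per kb in WT. It had 16.2, 17.5 and 24.0 RPM in the WT libraries and 13.0, 7.49 and 15.1 in the *rpa12Δ* libraries, without overlap, and a log2 difference of -0.69 (SE 0.27, adjusted p = 0.0611). SER1 was called lower without *rpa12Δ* replicate 1 or replicate 3 (adjusted p = 0.0329 and 0.0311).

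SER3 lies downstream of SRG1, a non-coding RNA on the same strand whose transcription across the SER3 promoter is known to repress SER3 when serine is plentiful. SRG1 was chosen for description after its values were seen. It ran from 322212 to 322762 on chromosome V and overlapped the first 77 nt of SER3, so that read ends there counted for both. SRG1 had 2.41, 0.7001 and 3.43 RPM in the WT libraries and 10.1, 8.13 and 8.07 in the *rpa12Δ* libraries. The *rpa12Δ* values were the higher ones without overlap, opposite to SER3. In the fit over all 6260 genes with reads, of which 173 rose, its log2 difference was 1.72 (adjusted p = 0.00576). The WT values stand on 1 to 4 reads per library. Whether SRG1 had a part in the level of SER3 was not tested. In the shared 77 nt lay 0, 0 and 1 of the SER3 reads of the WT libraries and 7, 6 and 4 of those of the *rpa12Δ* libraries. Without them SER3 was at 24.7, 15.4 and 24.9 RPM in WT and at 12.6, 10.5 and 10.6 in *rpa12Δ*, again without overlap.

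The remaining paralog pairs overlapped in their ratios. The log2 ratio of ARO3 to ARO4 changed by 0.11 (95% interval -0.58 to 0.80, exact permutation p = 0.8) and that of BAT1 to BAT2 by 0.21 (95% interval -0.27 to 0.69, exact permutation p = 0.4). BAT2, the cytosolic branched-chain aminotransferase, had 30.1, 26.6 and 20.6 RPM in the WT libraries and 18.3, 10.5 and 11.2 in the *rpa12Δ* libraries and a log2 difference of -0.92 (SE 0.24, adjusted p = 0.00892). It overlapped in no library, and its call was lost without WT replicate 1 or *rpa12Δ* replicate 2 (adjusted p = 0.0509 and 0.0694). The interval for ARO3 and ARO4 includes a change as large as that of LYS20 and LYS21, and the interval for BAT1 and BAT2 does not.

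The remaining genes of amino acid biosynthesis were read from the same fit. Of 29 such genes, 21 were tested, 12 fell and 1 rose, with a median log2 difference of -0.54. Over all genes 25.7% fell and 5.38% rose. With the median ratio 10 of the 21 fell and 1 rose, against 17.5% and 16.5% of all genes. Genes of the arginine pathway outside the 39 fell as well. ARG7, the ornithine acetyltransferase, had 43.3, 32.2 and 36.0 RPM in the WT libraries and 5.76, 7.92 and 10.8 in the *rpa12Δ* libraries and a log2 difference of -2.09 (SE 0.24, adjusted p = 8.03e-06). CPA1, which acts in carbamoyl phosphate synthesis for arginine, had 106, 67.2 and 76.4 RPM in the WT libraries and 27.8, 27.0 and 24.4 in the *rpa12Δ* libraries and a log2 difference of -1.60 (SE 0.19, adjusted p = 1.18e-05). ARG56 (ARG5,6), the precursor of a pair of mitochondrial enzymes of the same route, had a log2 difference of -1.25 (SE 0.17, adjusted p = 4.72e-05). None of these 3 genes overlapped between strains.

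Other genes of this list had the following differences. GDH1, the main glutamate dehydrogenase for ammonium assimilation, GLN1, the glutamine synthetase, and ASN1, an asparagine synthetase, had log2 differences of -1.07, -0.97 and -0.82 (adjusted p = 9.09e-05, 2.75e-04 and 6.43e-04). GLT1, the glutamate synthase, and ASN2, the other asparagine synthetase, overlapped between strains and were not called (log2 differences -0.35 and -0.09, adjusted p = 0.107 and 0.675). SHM2 and SHM1, the cytosolic and the mitochondrial serine hydroxymethyltransferase, had log2 differences of -0.996 and -0.51 (adjusted p = 6.02e-04 and 0.0305). The call of SHM1 was lost without WT replicate 1 or 3 or *rpa12Δ* replicate 2 or 3 (adjusted p = 0.107, 0.0742, 0.0883 and 0.112). CYS3, the cystathionine gamma-lyase, had a log2 difference of -0.52 (adjusted p = 0.0240), and its call was lost without WT replicate 1 or 2 or *rpa12Δ* replicate 2 or 3 (adjusted p = 0.0926, 0.0569, 0.108 and 0.105). The aromatic aminotransferases went apart. ARO8 had a log2 difference of -0.77 (SE 0.18, adjusted p = 0.00381), whereas ARO9, which also serves the breakdown of aromatic amino acids, had 10.2, 7.001 and 12.0 RPM in the WT libraries and 18.1, 18.6 and 18.5 in the *rpa12Δ* libraries and a log2 difference of 0.88 (SE 0.24, adjusted p = 0.0113). The rise of ARO9 was not called without *rpa12Δ* replicate 2 (adjusted p = 0.0623).

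Of 14 regulators of these pathways 9 were tested, 3 fell and none rose, with a median log2 difference of -0.34. No regulator rose at an unadjusted p of 0.05 or with limma-voom either. Over all genes 25.7% fell. With the median ratio 1 of the 9, GCN4, fell and 1 rose, GCN20, which works with Gcn1 in the activation of Gcn2 (log2 difference 0.68, adjusted p = 0.00385, against 0.41 and 0.123 in the main analysis). GCN4 (YEL009C, chromosome V 138918 to 139763, minus strand), the activator of general amino acid control, had 177, 174 and 191 RPM in the WT libraries and 96.3, 79.8 and 84.5 in the *rpa12Δ* libraries, without overlap, and a log2 difference of -1.05 (SE 0.15, adjusted p = 4.87e-05). Its level per kb, 214 RPM per kb in WT and 103 in *rpa12Δ*, was close to that of ILV5 in WT. Read ends in GCN4 measure RNA in the immunoprecipitate, and Gcn4 protein was not measured. ARG81, which senses arginine, and BAS1, an activator of histidine and purine genes, had log2 differences of -0.77 and -0.68 (adjusted p = 0.0300 and 0.0424), and neither was called with the median ratio (adjusted p = 0.0720 and 0.126). The ARG81 call was lost without any 1 of 4 libraries (adjusted p = 0.0705 and 0.134 without WT replicate 2 and 3, 0.0937 and 0.155 without *rpa12Δ* replicate 2 and 3). The BAS1 call was lost without any 1 of 5 (0.0754, 0.0696 and 0.142 without WT replicate 1, 2 and 3, 0.157 and 0.189 without *rpa12Δ* replicate 2 and 3). GCN2, the kinase that senses uncharged tRNA, had a log2 difference of -0.54 (adjusted p = 0.0756). LEU3 and LYS14, the pathway activators of leucine and lysine, had log2 differences of -0.31 and -0.13 (adjusted p = 0.389 and 0.686).

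Where the read ends lay inside the genes was not used to choose them. For each gene the upstream part was set against the downstream part, cut at the midpoint, and none of the 38 tested genes differed between strains in limma (3 at an unadjusted p of 0.05), against 0.551% of all genes with a higher and 0.345% with a lower upstream share in *rpa12Δ*. Averaged over the 38 genes, the first of 10 equal parts held 9.87 to 10.1% of the read ends in the WT libraries and 10.96 to 12.3% in the *rpa12Δ* libraries. The same part over all protein-coding genes tested held 8.82 to 9.14% in WT and 9.58 to 10.0% in *rpa12Δ*. Both sets were higher in *rpa12Δ* without overlap, and no test was made of this.

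Single nucleotides took large shares of some genes. With the reads of each strain pooled, the highest nucleotide was the same in both strains in 26 of the 39 genes. The share over all genes was not worked out. Some of these nucleotides stood on few WT reads, 3 in ARG3, LYS4 and LYS9 and 4 in ARG4 and LYS20. Those of LYS4 and LYS20 all came from WT replicate 1. In most of the 26 genes the share of this nucleotide was largest in replicate 1 of both strains. In LEU9 it was 24.4, 8.70 and 10.3% in the WT libraries and 29.3, 25.2 and 9.96% in the *rpa12Δ* libraries. Exceptions included ILV5, given below. Whether the agreement between strains rests on this shared trait of replicate 1 was not tested. In 7 genes the highest nucleotide held over 20% of the read ends as a mean over the 3 *rpa12Δ* libraries. In all 7 it was the same nucleotide in WT. In ILV5 it was nucleotide 35 of the coding sequence, at position 839219 of chromosome XII, with 31.9, 25.8 and 40.8% of the read ends of the WT libraries and 44.8, 42.9 and 30.6% in *rpa12Δ*. Without it the log2 difference of ILV5 was -0.14 (adjusted p = 0.428). In HOM6, at nucleotide 551, the shares were 28.6, 21.8 and 18.0% in WT and 44.4, 41.8 and 27.5% in *rpa12Δ*, and the log2 difference without it was -0.38 (adjusted p = 0.0889). The remaining 5 were LYS1 (nucleotide 199), SER33 (808), LEU1 (130), LEU9 (175) and ARG3 (716). In ARG3 the shares were 63.6, 9.38 and 4.35% in *rpa12Δ*, the first in a library with 11 reads in the gene. The number of such genes was 5, 6 and 9 without *rpa12Δ* replicate 1, 2 and 3, and in 4, ILV5, HOM6, LYS1 and SER33, the share was over 20% in every *rpa12Δ* library. In HIS4 the highest nucleotide, 775, held 18.5, 4.57 and 12.5% in WT and 23.3, 18.2 and 7.55% in *rpa12Δ*, and the log2 difference without it was -2.65. Leaving out the highest nucleotide of every gene, taken in each library by itself, brought the falls among the 38 genes to 23. The added calls were LYS21 (log2 difference -0.53, adjusted p = 0.0288) and LEU1 (-0.45, adjusted p = 0.0174). The nucleotide left out could thus differ between libraries. Reads that share both ends may be copies of 1 molecule, since no molecular identifiers were used. The number of distinct pairs of read ends, as a percentage of a gene's reads, had a median over genes of 91.2% in WT and 93.3% in *rpa12Δ*, and the lowest was 57.3%, in ILV5.

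The opposite strand carried little signal in these genes. The mean level was at most 1.97 RPM in either strain, and none of the 39 was among the 28 genes with enough antisense reads to be tested, of which 7.14% rose and 50.0% fell.

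The calls differed in how firmly they held. Of the 21 genes that fell, 8 were called under every alternative in which they were tested, namely ARG4, HIS4, HIS5, LEU4, ILV2, TRP5, ARO1 and HOM3. The other 13 lost the call in at least 1 alternative, 6 of them when a single library was left out, and none of the 21 changed direction.

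**Figure D5:**
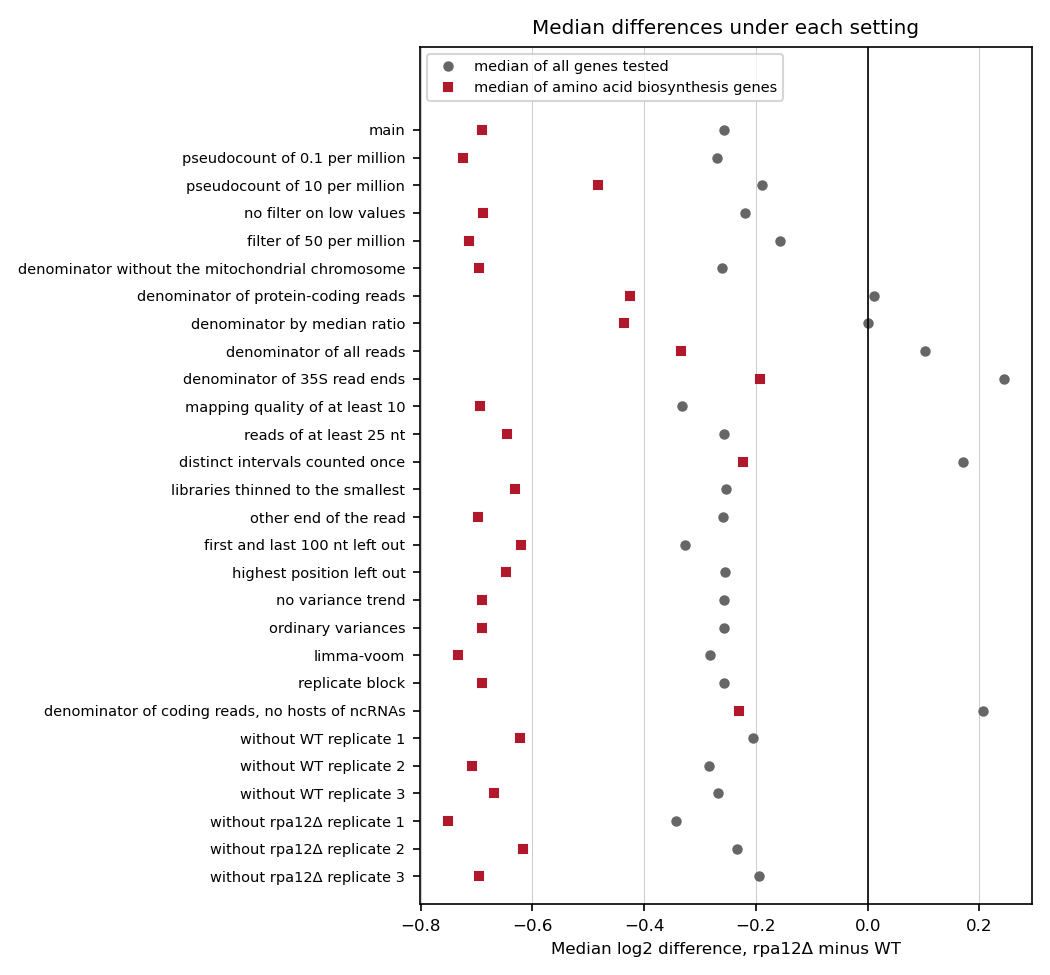
Median log2 difference between strains (rpa12Δ minus WT) under the main setting and each of 27 alternatives, for all genes tested (grey circles) and for the amino acid biosynthesis genes tested (red squares). The red squares lie between -0.75 and -0.19, always to the left of the grey circle on the same line.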

How the data were processed

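NET-seq libraries of 3 WT and 3 *rpa12Δ* cultures were used. The deposited files hold 1 line per aligned read with its position, strand and, as a score, the mapping quality given by the authors' aligner. The submitters' processing notes name bcl2fastq 2.18.0.012, Trim Galore 0.4.1, BWA 0.6 and SAMtools 1.3.1, and the genome build is not given in the sources used here. Chromosome ends and gene coordinates were those of the R64 build. Read counts were made here from these deposited lines, which carry no scaling.

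The 5′ end of each read was counted in 6389 genes on the strand opposite to the gene, where it marks the 3′ end of the RNA, and divided by reads outside positions 451418 to 490526 of chromosome XII. Gene names and coordinates came from the RefSeq gene table, and strands from the last letter of the systematic name, which 47 of 6477 table entries do not give. A read in overlapping genes of 1 strand counted for each.

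Levels in RPM are read ends per 1000000 such reads. The test took each gene whose mean reached 10 RPM, on log2(RPM + 1), so changes of low genes are understated, with limma 3.58.1 in R 4.3.3 (variance trend, Benjamini-Hochberg adjustment over all genes tested, threshold 0.05). Every adjusted p is from this limma test unless another is named. Ratios of paralogs were compared with a two-sided exact permutation test, which with 3 against 3 libraries cannot go below 0.1. Versions were matplotlib 3.10.9, scipy 1.17.1, pandas 2.3.3, numpy 2.4.6 and Python 3.11.15. The fits were checked on simulated counts with set fold changes. Floors of 3 reads (0.617 to 2.57 RPM) cover counting error only.

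The 39 genes and the other lists were chosen with earlier results of these data known. Described with values are the called genes (1 gene of the other lists is not reported here), the gene with the highest level per kb in each pathway, 5 paralog pairs, called genes of the other lists, GCN4, RPA12 and STE2. Further members and regulators were chosen for detail after their values were seen. Alternatives were other pseudocounts, filters, denominators, mapping quality, read length, distinct reads, thinning, the other read end, gene ends or the highest position left out, other variance models, a replicate block and each library left out. The denominator of protein-coding reads without hosts of non-coding RNAs was chosen after seeing the data.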

Additional observations from a re-analysis of the deposited data

How the results depend on the processing

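The falls among the amino acid genes numbered 21 in the main analysis and stayed within 1.5 times of it except with a filter of 50 RPM (8, with fewer genes tested), 35S read ends as the denominator (9), distinct intervals counted once (9) and protein-coding reads without hosts of non-coding RNAs as the denominator (11). Rises among them, 0 in the main analysis, were 2 with protein-coding reads, 2 with the median ratio, 4 with all reads, 7 with 35S read ends, 5 with distinct intervals and 6 with protein-coding reads without hosts. Over all genes the falls, 747, were 280 with a filter of 50 RPM, 477 with protein-coding reads, 379 with all reads, 307 with 35S read ends, 445 with distinct intervals, 329 with ordinary variances and 367 without hosts. The rises, 156, were 491, 588, 889, 845, 79 and 870 under the same settings without the filter, 479 with the median ratio, 70 with a mapping quality of at least 10 and 49 with gene ends left out. Leaving out single libraries gave 15 to 22 falls and 0 to 1 rises among the amino acid genes, and 440 (without *rpa12Δ* replicate 2) to 1054 falls and 85 (without *rpa12Δ* replicate 2) to 169 rises over all genes. The comparison of upstream and downstream parts called 26 genes in the main analysis, 16 and 61 with pseudocounts of 0.1 and 10 RPM, 0 with distinct intervals, 1 with a mapping quality of at least 10 and 0 (without *rpa12Δ* replicate 2) to 25 with a library left out, where it was 2 without *rpa12Δ* replicate 3, and never an amino acid gene. The antisense comparison called 16 genes, 70 with distinct intervals and 8 (without *rpa12Δ* replicate 2 or 3) to 20 with a library left out, and 10 without WT replicate 2 or 3. Among genes called in the main analysis or under the alternative, the log2 difference changed sign in LEU9 with 35S read ends (0.46), distinct intervals (0.37) and without hosts (0.42), in HOM6 with 35S read ends (0.44), in SHM1 with 35S read ends (0.0016) and distinct intervals (0.026), and in CYS3 with 35S read ends (0.0028). Counting differences that were not called too, the sign changed in 10 of the 38 tested genes with 35S read ends and in 5 with the median ratio, LEU9 and HOM6 among them (0.21 and 0.19). The cause was not tested, beyond the shift of all genes that each denominator brings. Deviations of gene levels from the strain mean had correlations of 0.167, 0.014 and -0.023 between samples of the same replicate number. Between other numbers the correlations ran from -0.232 to 0.238, so the numbers were not taken as pairs. In the shares of the highest nucleotides, replicate 1 was often the highest in both strains, and a pairing there was not tested. The replicate block gave 24 falls among the amino acid genes, 897 falls and 216 rises over all genes, 6 calls in the comparison of gene parts and 14 in the antisense comparison. WT libraries are shallower than *rpa12Δ* libraries, and genes near 10 RPM rest on few reads there.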
